A study of Homo sapiens with 4 samples.

Results

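HLA class II genes, the invariant chain gene CD74 and the transactivator gene CIITA were followed in MIA PaCa-2 pancreatic carcinoma cells that overexpress ING3. There were 10 genes (HLA-DRA, HLA-DRB1, HLA-DPA1, HLA-DPB1, HLA-DQB1, HLA-DMA, HLA-DMB, HLA-DOA, CD74 and CIITA) among the 19775 genes that the array annotation names. A probe set, the array's unit of measurement for a transcript, was taken for a gene when the annotation gave it that symbol, alone or beside other HLA genes, which gave 33 probe sets among 54613. For each gene the brightest probe set, by mean log2(signal + 1) over all 4 arrays, stands for the gene. The genes were chosen by their signals on these same arrays, with the differences between the groups already known, so the counts and p-values below describe them and lend the choice no independent support.

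The ING3 group held 2 arrays (a and b) of cells carrying a lentivirus with full-length FLAG-tagged ING3 in a CMV-driven vector that carries puromycin resistance, and the control group held 2 arrays (a and b) of cells carrying a GFP lentivirus. All cells were the MIA PaCa-2 line, an established human epithelial line, were lentivirally transduced and selected as stable transfectants, and were plated and grown towards confluence with serum and antibiotic before their RNA was isolated. Whether each group is 1 clone or a pool is not given in the sources used here. The submitters call the 2 arrays of a group technical duplicates, so every p-value sets a difference against the spread between such arrays and compares these particular cells, not independent cultures. The comparison asks which transcripts differ when ING3, a chromatin reader that belongs to the TIP60 acetyltransferase complex, is overexpressed.

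Class II molecules present peptides from the endocytic pathway to CD4+ T cells. An alpha and a beta chain of the DR, DP or DQ type assemble with CD74, the invariant chain, which blocks the groove until HLA-DM exchanges its remnant for a peptide, while HLA-DO restrains HLA-DM. Their promoters share X and Y boxes bound by the RFX complex, CREB and NF-Y, which recruit CIITA, a coactivator that does not itself bind DNA and is induced by interferon gamma. Professional antigen-presenting cells make these genes constitutively, and epithelial cells mostly after interferon gamma.

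The shared promoter layout is shown for the 4 genes whose RefSeq promoter (250 bases before to 50 after the start, GRCh38.p14) holds the X box letters on the gene's strand. Capitals mark the X box letters ACNGATG and, where present, the Y box letters CTGATTGG. All 4 lie on the minus strand and are printed 5′ to 3′.
HLA-DRB1: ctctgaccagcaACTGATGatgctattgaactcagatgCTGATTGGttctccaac
HLA-DQB1: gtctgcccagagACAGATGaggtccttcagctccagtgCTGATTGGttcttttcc
HLA-DMA: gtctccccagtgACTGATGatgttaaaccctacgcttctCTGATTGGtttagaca
HLA-DMB: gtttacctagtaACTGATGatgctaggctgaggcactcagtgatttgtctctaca
The windows are chr6:32589881-32589935 for HLA-DRB1, chr6:32666732-32666786 for HLA-DQB1, chr6:32953164-32953218 for HLA-DMA and chr6:32941070-32941124 for HLA-DMB. The Y box letters began 26 bases after the X box letters in HLA-DRB1 and HLA-DQB1 and 27 bases after in HLA-DMA. On either strand, the X box letters occur in 7.65% of the 35116 promoters of the table and the Y box letters in 3.97%. An X box match ahead of a Y box match on the gene's strand occurs in 14 promoters (0.0399%), 3 of them those of HLA-DRB1, HLA-DQB1 and HLA-DMA. The table matched 8 of the 10 genes, and the letters were chosen with these promoters in view, so a match is a description and not a measured site. The CD74 promoter holds the X box letters on the opposite strand, and the letters are in none of the windows of HLA-DPA1, HLA-DPB1 and HLA-DOA.

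Leaving out 2% of probe sets at either end, the mean signal was 500.07 on every array, so the deposited arrays share a common scale. Across the tested genes the arrays correlated at r = 0.991 within the ING3 group, 0.989 within the control group and 0.987 to 0.988 between groups; genes are not independent replicates. For RNA quality, the 3′ probe set of ACTB over its 5′ one gave 2.05 and 2.03 on the ING3 arrays and 2.58 and 1.80 on the control arrays, and the same ratio for GAPDH gave 0.903 and 0.923 on the ING3 arrays and 0.934 and 0.905 on the control arrays. The brightest ING3 probe set read 521 and 541 on the ING3 arrays, against 338 and 373 on the control arrays, 1.49-fold higher without passing the test over all genes (limma adjusted p = 0.0715), while the next brightest read 260.5 and 222 on the ING3 arrays and 287 and 261 on the control arrays. Of 6 epithelial markers 4 were tested and 2 of these called, the keratins KRT8 (12428 and 12714 on the ING3 arrays, 9739.7 and 10420 on the control arrays) and KRT19, which rose by 1.25-fold and 1.43-fold (limma adjusted p = 0.0327 and 0.00816). KRT18 and KRT7 had log2 differences of 0.13 and -0.16 and were not called (limma adjusted p = 0.312 and 0.863). The defining epithelial genes EPCAM (log2 difference -0.61, highest reading 37.9) and CDH1, which encodes E-cadherin (log2 difference -0.34, highest reading 19.7), lay under the filter on dim values and overlapped between groups.

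The DR and DP chain genes had higher mean signals in the ING3 cells, by between 1.59-fold and 2.10-fold. HLA-DPA1 rose 2.10-fold, and the probe set that represents HLA-DRB1 rose 1.89-fold. HLA-DMA and HLA-DMB, which edit the peptide cargo, were 1.41-fold and 1.22-fold higher without passing the test, and HLA-DRA and HLA-DPB1 likewise did not pass. CD74, CIITA and HLA-DOA had overlapping groups. Of the 10 genes, 3 were called at an adjusted p under 0.05, all higher, in a fit that called 1.5% of 12189 genes and called 1.03% of these 12189 higher. These are 2 distinct signals, because HLA-DQB1 has the same brightest probe set as HLA-DRB1. Over the 9 distinct probe sets that represent the 10 genes, 8 averaged higher in the ING3 cells, 6 were higher with no overlap between groups, and the median log2 difference was 0.49. Over all genes tested, 24.3% were higher with no overlap, and the median log2 difference was -0.0074.

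**Figure D1:**
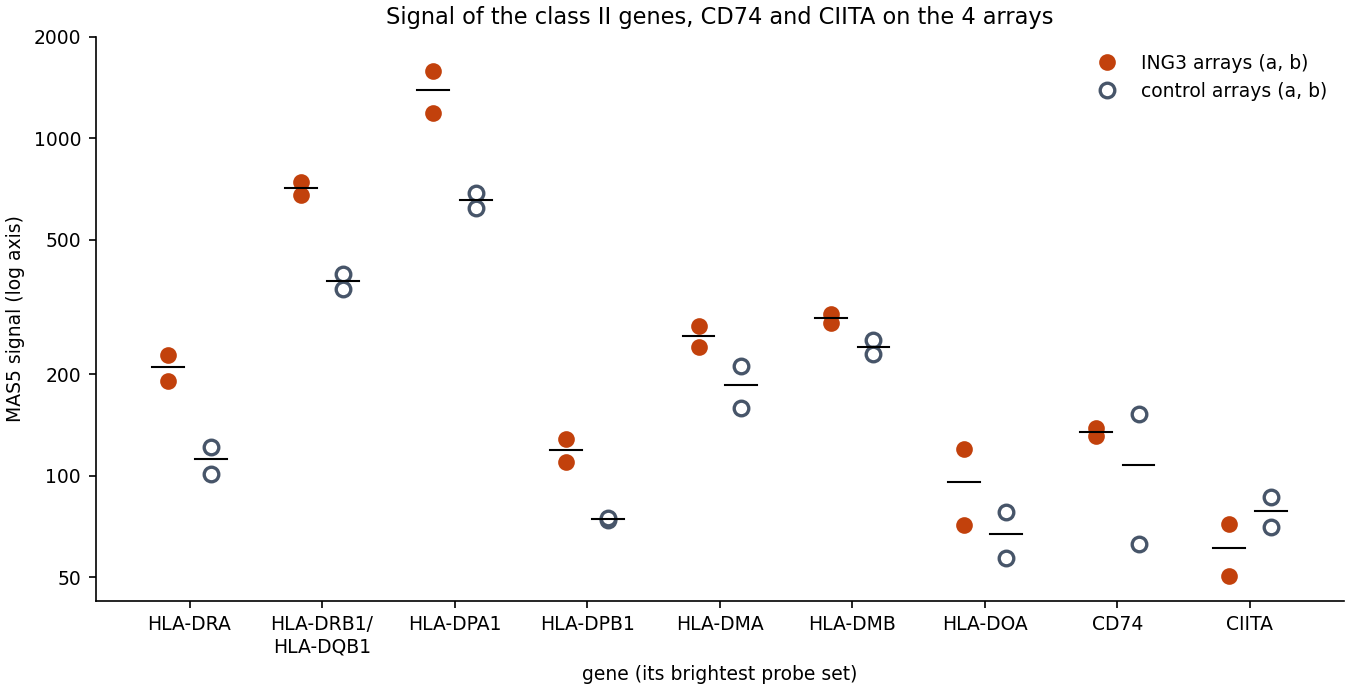
MAS5 signal (log axis) of the probe set that represents each gene, with the 2 ING3 arrays as filled points on the left and the 2 control arrays as open points on the right of each gene, and a line at each mean. HLA-DRA, HLA-DRB1/HLA-DQB1, HLA-DPA1, HLA-DPB1, HLA-DMA and HLA-DMB show both ING3 arrays above both control arrays; heights of different probe sets cannot be compared with each other.

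HLA-DRA (NCBI gene 3122, chr6:32439887-32445046 in GRCh38.p14) encodes the DR alpha chain, which hardly varies between people. The probe set that stands for it, 208894_at, read 229 and 191 on the ING3 arrays and 122 and 102 on the control arrays. Both ING3 arrays lay above both control arrays, with a log2 difference of 0.90 (SE 0.24, limma adjusted p = 0.103), so HLA-DRA did not pass. Its other probe set, 210982_s_at, read 82.7 and 107 on the ING3 arrays and 21.5 and 9.42 on the control arrays. It went the same way with a log2 difference of 2.64, but it lay under the filter on dim values and has no test.

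HLA-DRB1 (NCBI gene 3123, chr6:32578775-32589848), whose X and Y letters are printed above, encodes the variable DR beta chain. Its brightest probe set, 209312_x_at, is annotated to HLA-DRB5, HLA-DRB4, HLA-DRB1 and HLA-DQB1, so the share of each gene is uncertain. It read 743 and 681.5 on the ING3 arrays (mean 712 ± 43.8, SD, n = 2) and 396 and 358 on the control arrays (mean 377 ± 26.8, SD, n = 2). The groups stood apart by more than the gap within either group, and the signal rose 1.89-fold (log2 difference 0.92, SE 0.13, limma adjusted p = 0.0131). The probe set annotated to HLA-DRB1 alone, 208306_x_at, read 720 and 739 on the ING3 arrays and 296 and 318 on the control arrays. That is a 2.37-fold rise with a log2 difference of 1.25 (SE 0.13), called among all probe sets past the filter (limma adjusted p = 0.0128). Like the brightest one it is of the _x_at kind, whose probes can bind related transcripts.

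The other HLA-DRB1 probe sets are all shared with other DRB genes. Probe set 204670_x_at read 475 and 405 on the ING3 arrays against 266 and 261 on the control arrays, and 215193_x_at read 380.5 and 297 on the ING3 arrays against 161 and 203 on the control arrays. Both were higher on each ING3 array, at log2 differences of 0.73 and 0.89, without passing the test over all probe sets (limma adjusted p = 0.095 and 0.116). Among the dim ones, 238900_at was higher on both ING3 arrays (39.0 and 48.7 on the ING3 arrays, 18.8 and 21.03 on the control arrays), and 221491_x_at overlapped (86.0 and 29.1 on the ING3 arrays, 61.0 and 54.2 on the control arrays). In all, 5 of 6 HLA-DRB1 probe sets were higher with no overlap and 0 lower, and 4 of those 5 are annotated to other DRB genes too. On the whole array, 16.6% of all 54613 probe sets were higher and 24.6% lower with no overlap.

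HLA-DPA1 (NCBI gene 3113, chr6:33064569-33080748) encodes the DP alpha chain. Probe set 211990_at, its brightest, read 1188 and 1586 on the ING3 arrays (mean 1387 ± 282, SD, n = 2) and 622 and 688 on the control arrays (mean 655 ± 46.7, SD, n = 2). The lower ING3 array was 1.73-fold above the higher control array, and the log2 difference was 1.07 (SE 0.14, limma adjusted p = 0.00979). This probe set is annotated to HLA-DPA1 alone and is not of the _x_at or _s_at kind. The other HLA-DPA1 probe sets were also higher on both ING3 arrays. Probe set 211991_s_at read 338 and 249 on the ING3 arrays and 129 and 121 on the control arrays, and 213537_at read 123 and 103 on the ING3 arrays and 35.3 and 54.1 on the control arrays. Their log2 differences of 1.21 (SE 0.22) and 1.35 (SE 0.37) did not pass over all probe sets (limma adjusted p = 0.072 and 0.164). Probe set 213537_at stood just inside the filter, with a mean signal of 70.3, and passed it only through the ING3 arrays, so its difference is a description and lends no support.

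HLA-DPB1 (NCBI gene 3115, chr6:33075990-33089696) encodes the DP beta chain and overlaps the span of HLA-DPA1. Probe set 201137_s_at, its brightest, read 128 and 110 on the ING3 arrays, against 73.7 and 74.9 on the control arrays. The groups did not overlap, but at this dim level the log2 difference of 0.67 (SE 0.31) did not pass (limma adjusted p = 0.298). The other HLA-DPB1 probe set, 244485_at, read 8.83 and 47.6 on the ING3 arrays and 48.3 and 40.3 on the control arrays. It overlapped between groups and lay under the filter.

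The calls of HLA-DPA1 and of the HLA-DRB1/HLA-DQB1 probe set rest on both control arrays and on the variance model. Without control array a the limma adjusted p was 0.195 for HLA-DPA1 and 0.156 for HLA-DRB1, without control array b it was 0.133 and 0.157, and with a variance prior that ignores brightness it was 0.237 for each, while the log2 differences stayed between 0.84 and 1.14 in these fits. In the fit over probe sets, 0 of the 16 tested were called by limma without control array a, without control array b or without ING3 array b (10, 8 and 8 at an unadjusted p under 0.05, as were 11.3%, 11.1% and 12.6% of all probe sets tested). Of all genes, limma called 2 without control array a and 2 without control array b, AKR1C1 and UCA1 each time, so KRT8, KRT19, SLC43A1 and ERCC6, given as risen here, lost their calls there as well.

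HLA-DQB1 (NCBI gene 3119, chr6:32659467-32666657) encodes the DQ beta chain and has 10 probe sets, the most in the set. The value by the rule is that of the shared probe set 209312_x_at given for HLA-DRB1. The brightest probe set annotated to HLA-DQB1 alone, 211654_x_at, read 200 and 183 on the ING3 arrays and 142 and 163 on the control arrays, with no overlap and a log2 difference of 0.32 (SE 0.21, limma adjusted p = 0.496 over all probe sets). The next, 211656_x_at, overlapped, with 167 and 135 on the ING3 arrays and 123 and 137 on the control arrays. HLA-DQB1 therefore passed only through a probe set shared with DRB genes, and its own tested probe sets did not pass.

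The other 5 probe sets of HLA-DQB1 alone were all under the filter. Of these, 4 were higher on both ING3 arrays with no overlap, as were 16.6% of all 54613 probe sets. The largest gap was in 212998_x_at, with 84.6 and 49.98 on the ING3 arrays and 9.35 and 4.05 on the control arrays. Probe set 209823_x_at read 66.3 and 53.1 on the ING3 arrays and 13.3 and 24.2 on the control arrays. The other 2 of these 4 were 212999_x_at, with 62.5 and 55.2 on the ING3 arrays and 41.8 and 19.1 on the control arrays, and 210747_at, with 5.53 and 6.64 on the ING3 arrays and 2.28 and 1.56 on the control arrays. At such signals arrays of 1 group also differed widely: 209480_at read 9.44 and 48.5 on the ING3 arrays, on either side of its control values of 29.4 and 28.5.

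HLA-DMA (NCBI gene 3108, chr6:32948618-32953097) and HLA-DMB (NCBI gene 3109, chr6:32934636-32941028) encode the chains of HLA-DM, the peptide editor, and have 1 probe set each. HLA-DMA read 278 and 241 on the ING3 arrays and 212 and 159 on the control arrays. HLA-DMB read 302 and 283 on the ING3 arrays and 252 and 230 on the control arrays. Neither gene's groups overlapped, but for HLA-DMA the lowest ING3 array was nearer to the highest control array than the control arrays were to each other (log2 difference 0.49, SE 0.21, limma adjusted p = 0.272). HLA-DMB had a log2 difference of 0.28 (SE 0.17, limma adjusted p = 0.425). The X box letters printed above occur in both promoters, and the Y box letters in that of HLA-DMA.

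HLA-DOA (NCBI gene 3111, chr6:33004182-33009591) encodes the alpha chain of HLA-DO, the modulator of HLA-DM. By its brightest probe set it read 71.7 and 120 on the ING3 arrays and 77.9 and 56.9 on the control arrays, so the groups overlapped (log2 difference 0.47, SE 0.39, limma adjusted p = 0.582). Of its 5 probe sets 4 averaged higher and 1 lower in the ING3 cells. Of the 5, 2 were higher with no overlap, as were 16.6% of all 54613 probe sets. All 5 were dim: no array read over 120, and 4 of the 5 lay under the filter. Those higher with no overlap were 226878_at, with 73.3 and 78.9 on the ING3 arrays and 55.4 and 42.3 on the control arrays, and 211142_x_at, with 20.4 and 52.8 on the ING3 arrays and 14.3 and 18.5 on the control arrays. The overlapping ones were 206313_at, with 72.6 and 32.1 on the ING3 arrays and 60.3 and 7.77 on the control arrays, and 216946_at, with 46.2 and 31.3 on the ING3 arrays and 38.2 and 40.8 on the control arrays.

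CD74 (NCBI gene 972, chr5:150401639-150412910) encodes the invariant chain, which escorts class II dimers to endosomes. Probe set 209619_at, its brightest, read 131 and 139 on the ING3 arrays and 152 and 62.6 on the control arrays. The ING3 values lay between the control values, and the difference (log2 0.46, SE 0.40, limma adjusted p = 0.599) was smaller than the log2 gap of 1.27 between the control arrays. Without control array b the log2 difference was -0.17, so its direction rests on that array. The control arrays also differed in the ACTB ratio given above but hardly in the GAPDH ratio, and the part of RNA quality in this gap was not tested. The other CD74 probe sets overlapped too, 1567628_at with 59.1 and 11.3 on the ING3 arrays and 58.9 and 25.3 on the control arrays, and 1567627_at with 28.8 and 21.9 on the ING3 arrays and 27.1 and 31.4 on the control arrays.

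CIITA (NCBI gene 4261, chr16:10866206-10943021) encodes the class II transactivator. Probe set 210925_at, its brightest, read 71.7 and 50.6 on the ING3 arrays and 70.5 and 86.8 on the control arrays, overlapping by a small margin (log2 difference -0.37, SE 0.39, limma adjusted p = 0.672). The second probe set, 205101_at, went the other way, with 70.5 and 87.2 on the ING3 arrays and 42.1 and 57.2 on the control arrays, a log2 difference of 0.67. The third, 211884_s_at, read 6.88 and 19.99 on the ING3 arrays and 34.9 and 8.69 on the control arrays. The CIITA probe sets thus disagreed in direction, and all were dim, since the filter lies at 64.6, the median signal of all probe sets. The first stood just inside the filter with a mean signal of 68.7, and the second just outside it with 62.1. With a mean of 61.2 on the ING3 arrays and 78.7 on the control arrays, the first passed only through the control arrays. Its difference is therefore a description and lends no support to a lower CIITA signal.

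Over all 33 probe sets, 25 averaged higher and 8 lower in the ING3 cells. There were 21 higher with no overlap, against 16.6% of all 54613 probe sets, and 0 lower with no overlap, against 24.6%. The median log2 difference was 0.67 for these 33 and -0.058 for all. Of the 33, 16 passed the filter and 3 of those were called (208306_x_at, 209312_x_at and 211990_at), in a fit that called 0.37% of 27307 probe sets. The 33 are not separate measurements: 12 are of the _x_at kind, 5 are shared between genes, and several of 1 gene read the same transcript.

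**Figure D2:**
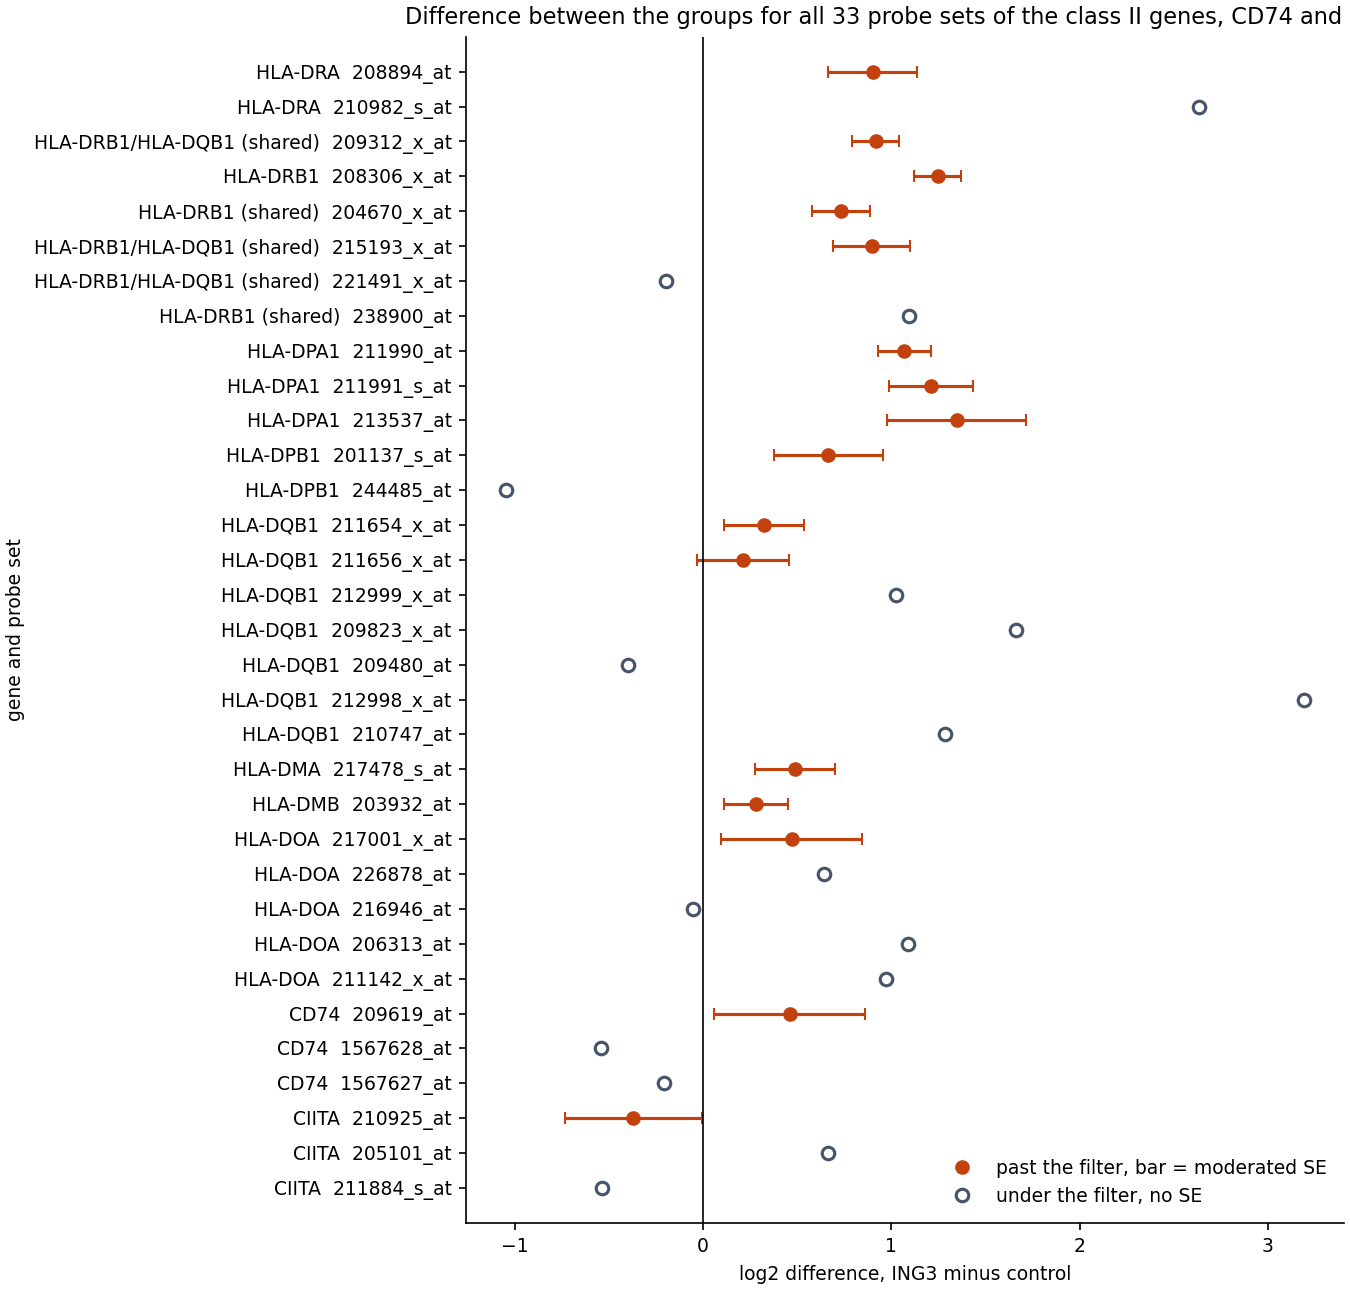
Log2 difference (ING3 minus control) of each of the 33 probe sets, by gene and from bright to dim within a gene; filled points passed the filter and carry a moderated SE bar, open points lay under it. The 3 HLA-DPA1 probe sets lie between 1.07 and 1.35, while those of CD74 and CIITA lie on either side of 0.

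Gaps between the groups narrow with brightness across the array. Among the 3947 probe sets with a mean signal of 512 to 1024, where 211990_at of HLA-DPA1 and 209312_x_at lie, the absolute log2 difference between groups had a median of 0.13 and a 95th percentile of 0.44. HLA-DPA1, at 1.07, and HLA-DRB1, at 0.92, were beyond that percentile. Among the 5935 probe sets of 64 to 128, where the values for HLA-DPB1, HLA-DOA, CD74 and CIITA lie, the 95th percentile was 0.89, and none of these 4 genes reached it. The signed differences in that range had a median of -0.16, against -0.043 for signals of 512 to 1024, so dim probe sets leaned lower in the ING3 cells. HLA-DRA, at 0.90, was beyond the 95th percentile of 0.69 for signals of 128 to 256. HLA-DMA, also there at 0.49, was within it. HLA-DMB, at 0.28, was within the 95th percentile of 0.55 for signals of 256 to 512.

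**Figure D3:**
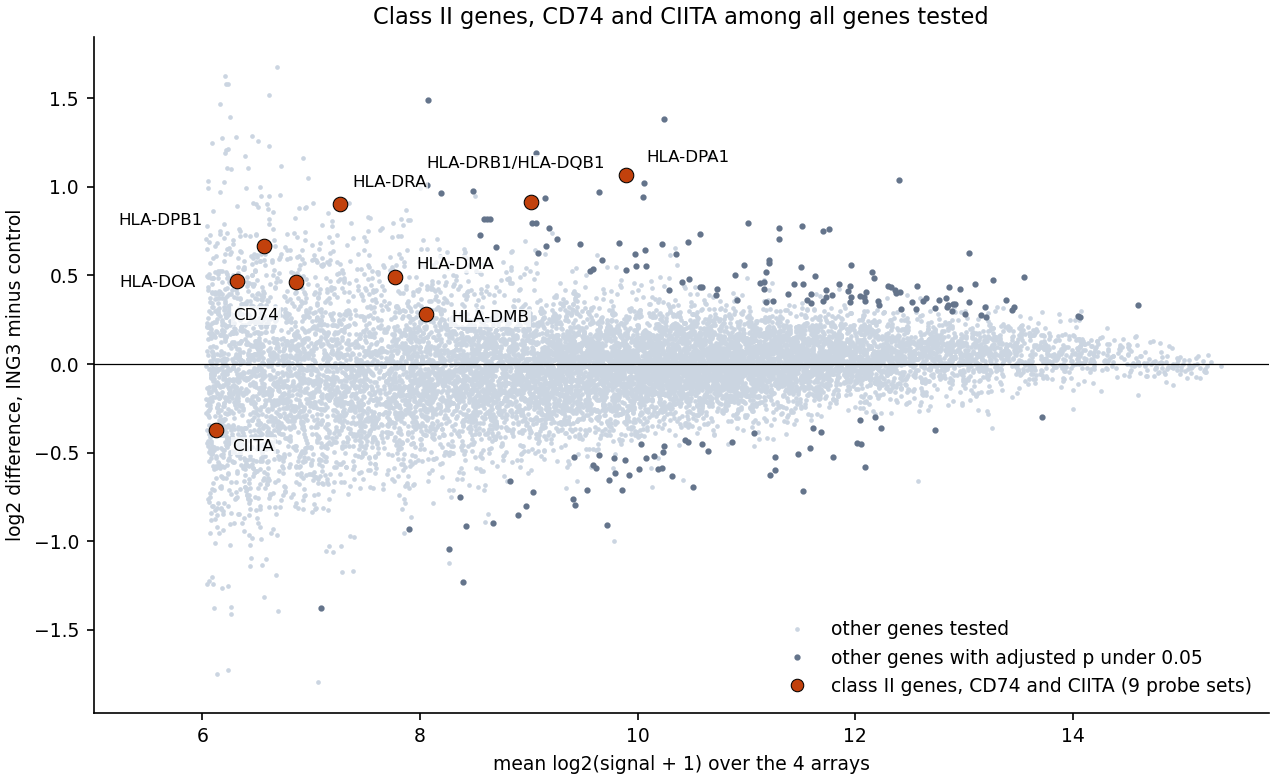
Log2 difference (ING3 minus control) against mean log2(signal + 1) over the 4 arrays for the 12189 genes tested, with the class II genes, CD74 and CIITA in orange and other genes with an adjusted p under 0.05 in dark grey. The spread narrows with brightness; HLA-DPA1 (1.07) and HLA-DRB1/HLA-DQB1 (0.92) lie at the upper edge and CIITA (-0.37) within the cloud.

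None of the regulators of class II transcription that were tested passed. Of 7 promoter factors, 0 were called (3 at an unadjusted limma p under 0.05, as were 17.7% of all genes tested), 3 averaged higher and 4 lower in the ING3 cells, and the median log2 difference was -0.084. RFX5, a DNA-binding subunit of RFX, read 1332 and 1324 on the ING3 arrays and 1459 and 1616 on the control arrays (log2 difference -0.21, SE 0.085, limma adjusted p = 0.244). RFXANK, another RFX subunit, had a log2 difference of -0.27 (SE 0.098), and RFXAP, the remaining one, 0.18 (SE 0.14). For NFYA, the subunit of NF-Y that contacts the CCAAT sequence of the Y box, the signals were 1588 and 1616 on the ING3 arrays and 1357 and 1280 on the control arrays (log2 difference 0.28, SE 0.080, limma adjusted p = 0.118). Its partners NFYB and NFYC had log2 differences of 0.013 and -0.10, and CREB1, which binds the X2 part of the X box, -0.084. The RFX and NF-Y differences thus had both signs.

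Of 8 genes tested that carry or temper the interferon gamma signal to CIITA, 0 were called (2 at an unadjusted limma p under 0.05), 7 averaged higher in the ING3 cells, and the median log2 difference was 0.15. The receptor chains were the nearest to the threshold. IFNGR1, the ligand-binding chain, read 2810 and 2686 on the ING3 arrays and 2346 and 2270 on the control arrays (log2 difference 0.25, SE 0.069, limma adjusted p = 0.106). IFNGR2, the signalling chain, read 9690.5 and 8882 on the ING3 arrays and 7988 and 8107 on the control arrays (log2 difference 0.21, SE 0.061, limma adjusted p = 0.133). The receptor kinases JAK1 and JAK2 had log2 differences of 0.090 and -0.27. IRF1, a transcription factor induced by interferon gamma, had 0.20 (SE 0.11) and its relative IRF2 0.045. SOCS1, the feedback inhibitor, had 0.052 and USF1, a factor of a CIITA promoter, 0.25 (SE 0.27).

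Of 9 tested genes of lysosomal antigen processing, 0 were called (1 at an unadjusted limma p under 0.05), with 5 higher and 4 lower means and a median log2 difference of 0.0018. CTSS, the cathepsin that trims the invariant chain in antigen-presenting cells, was under the filter. It read 80.9 and 65.5 on the ING3 arrays and 35.4 and 49.3 on the control arrays, with no overlap. The ubiquitin ligase MARCHF8, which removes class II from the surface, had a log2 difference of 0.011, while its relative MARCHF1, under the filter, read 0.828 and 16.5 on the ING3 arrays and 49.6 and 31.1 on the control arrays. CD83, which opposes that removal, had a log2 difference of -0.13.

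**Figure D4:**
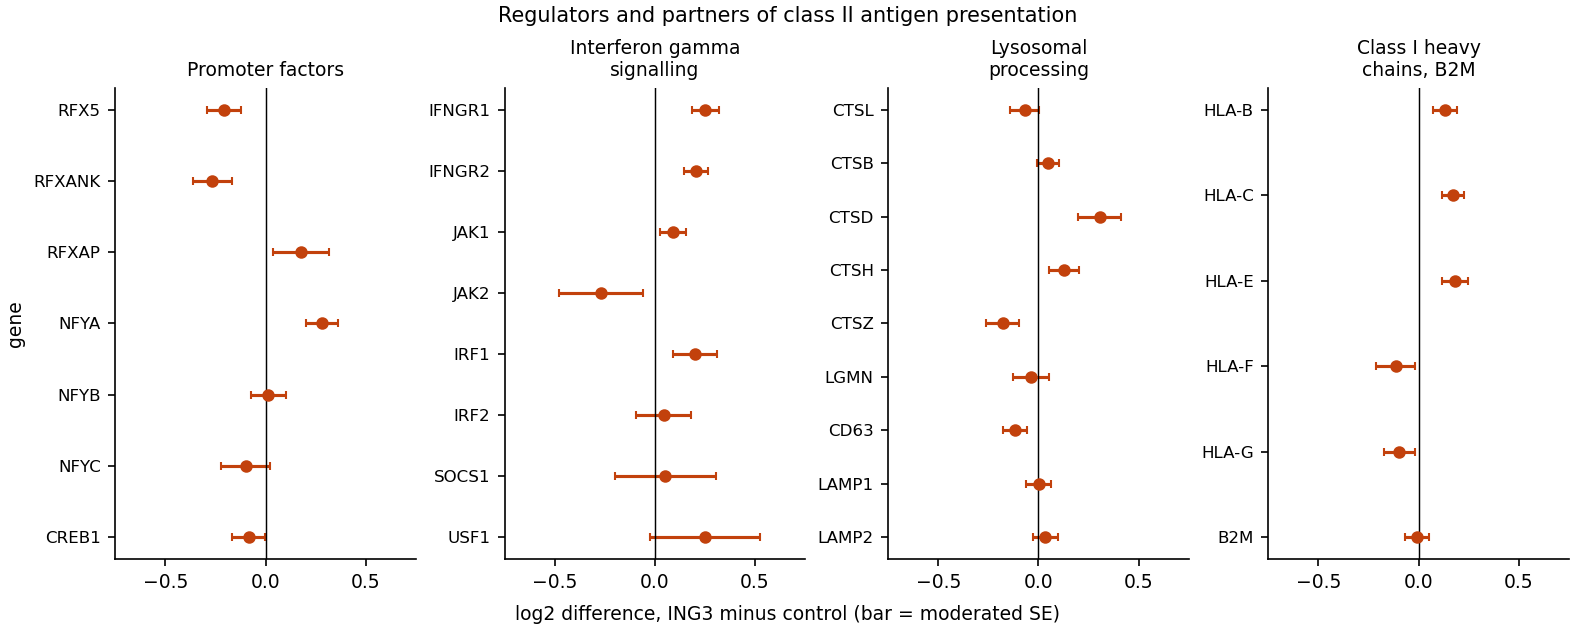
Log2 difference (ING3 minus control) with its moderated SE for the tested promoter factors, interferon gamma signalling genes, lysosomal processing genes and class I genes. None passed the test over all genes; RFXANK lies at -0.27, NFYA at 0.28 and IFNGR1 at 0.25.

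Most markers of other cell types lay under the filter, and some did not. Of 5 B cell markers on the array, 4 lay under the filter, MS4A1 (CD20) and PAX5 among them, and their summed signal was 602 and 444 on the ING3 arrays and 455 and 429 on the control arrays. CD79A, which is well above the filter, made up most of it (470 and 315 on the ING3 arrays, 321 and 249 on the control arrays, limma adjusted p = 0.323). Of 10 myeloid and dendritic markers, 8 lay under the filter, with sums of 514 and 552 on the ING3 arrays and 516 and 275 on the control arrays. LYZ, the brightest of these, read 149.5 and 150.1 on the ING3 arrays and 153 and 83.0 on the control arrays. Of 6 T cell markers 3 lay under it, with sums of 376 and 445 on the ING3 arrays and 514 and 396 on the control arrays. CD8A, the brightest of these, read 142 and 209 on the ING3 arrays and 202 and 224 on the control arrays. PTPRC, the pan-leukocyte gene, read 12.5 and 15.97 on the ING3 arrays and 11.9 and 9.38 on the control arrays, far under the filter on each. No marker of these lists was called. The part of such cells in the class II differences was not tested. In bulk RNA, more cells that express class II and more class II RNA per cell cannot be told apart.

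The tested genes whose centred log2 values over the 4 arrays lay nearest to those of HLA-DPA1 were IFFO1, AQP3, SLC43A1, FBXO27 and ERCC6, at Euclidean distances of 0.26, 0.26, 0.29, 0.29 and 0.30. SLC43A1, an amino acid transporter, read 632 and 782 on the ING3 arrays and 389 and 422 on the control arrays and rose (limma adjusted p = 0.0303). ERCC6, a repair ATPase, also rose (limma adjusted p = 0.0043), and the other 3 did not pass. With 4 arrays such nearness is a description of these arrays.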

How the data were processed

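The authors deposited 1 table of linear signal intensity per probe set, 1 column for each of the 4 arrays, computed by the MAS5 method in Affymetrix Expression Console according to the submitters' processing notes, which name no version. MAS5 corrects for mismatch probes, which leaves dim values noisy. The table gives no detection calls. Precision is limited by the number of arrays; intensities have no read depth. No value column was left unmapped (0).

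Control probe sets (62) were left out. The 2016 platform annotation gives 1 symbol to 41097 probe sets, several to 1801 and none to 11777. RefSeq (GRCh38.p14) changed 0 symbols. Genes and probe sets whose mean log2(signal + 1) reached the median (a signal of 64.6) were tested, 12189 and 27307. The test was limma 3.58.1 under R 4.3.3 (lmFit, eBayes with an intensity trend, two-sided, Benjamini-Hochberg over all features tested, call at 0.05), with 2 residual and 7.36 borrowed degrees of freedom per gene and no covariates. Fold changes are on the log2(signal + 1) scale and understate changes of dim genes. The script was tested on simulated data (12189 genes), where it found 51% of the 1.5-fold and 78% of the 2-fold changes. Of 136 calls there, 7 were false. The simulated noise was drawn from the fitted intensity trend, so these shares hold only as far as that trend describes the arrays. The genes, lists and alternatives were chosen with earlier results of these data known. The genes named are the 10 genes with all their probe sets, called genes of the pathway lists, every tested promoter factor and interferon gamma gene, and the 5 genes nearest to HLA-DPA1; markers and other list members given with values were named after their values were seen.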

Additional observations from a re-analysis of the deposited data

How the results depend on the processing

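The direction of the 10 genes' log2 differences held in 131 of 132 alternatives. The exception is CD74, which ranged from -0.17 to 1.10 when 1 array was left out. Many alternatives could not change the direction. Dropping the intensity trend, changing the filter or adding a replicate block leaves a probe set's log2 difference unchanged. HLA-DRB1 and HLA-DQB1 share a probe set in most alternatives. CIITA kept its brightest probe set throughout, so 205101_at, which went the other way (log2 difference 0.67), was never used. HLA-DPA1 ranged from 0.86 to 1.28 and HLA-DRB1 from 0.84 to 1.25 over their alternatives. The calls were less stable. Without the intensity trend limma called 0 genes (1685 at an unadjusted p under 0.05), 0 of the 10 genes (6 unadjusted), 0 probe sets (3547) and 0 of the 16 probe sets tested here (9). With no filter it called 54 genes, 3 of the 10 genes (HLA-DPA1, HLA-DRB1 and HLA-DQB1), 10 probe sets and, of the 33 probe sets, 1. After quantile normalization it called 119 genes, the same 3 of the 10 genes and 3 of the 16 probe sets. With the brightest probe set outside the _x_at and _s_at kinds where a gene has one (HLA-DMA has only an _s_at probe set and kept it), 1 of the genes (HLA-DPA1) was called, and HLA-DRB1, HLA-DQB1, HLA-DOA and HLA-DPB1 fell under the filter. Leaving out 1 array gave 2 to 304 genes, 0 to 3 of the 10 genes, 0 to 52 probe sets and 0 to 1 of the 16. Without control array a or b the 2 genes called were AKR1C1 and UCA1. In these fits 6 and 4 of the 10 genes had an unadjusted limma p under 0.05, as did 11.3% and 12.1% of all genes tested. These counts include the shared probe set 209312_x_at under both HLA-DRB1 and HLA-DQB1. With the letter a or b as a replicate block, 429 genes, 3 of the 10 genes, 672 probe sets and 6 of the 16 were called. Deviations of like-lettered arrays correlated at 0.029 across genes. With 2 arrays a group, 1 correlation over all genes cannot show whether like-lettered arrays share more than a letter. Using probe sets of 1 symbol only, chosen after seeing the data, left HLA-DPA1 and HLA-DRB1 called. The cause of these shifts was not tested.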

Other observations

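Class II genes outside the 10 had 14 further probe sets, of which 2 passed the filter, 5 were higher in the ING3 cells with no overlap, 1 was lower and 8 overlapped; of all probe sets 16.6% were higher and 24.6% lower with no overlap. The widest gap was in 212671_s_at, annotated to HLA-DQA2 and HLA-DQA1, with 73.5 and 60.5 on the ING3 arrays and 5.23 and 6.82 on the control arrays. The pseudogene HLA-DRB6 was read by 217362_x_at at 162 and 136 on the ING3 arrays and 115 and 110 on the control arrays (limma adjusted p = 0.465). The DRB4-only probe sets read under 40 on every array.

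Class I genes were bright and close between groups. Of 6 class I genes 0 were called (2 at an unadjusted limma p under 0.05, as were 17.7% of all genes tested), with a median log2 difference of 0.063. B2M, the class I light chain, read 23518 and 23884 on the ING3 arrays and 25005 and 22682 on the control arrays. HLA-E, a ligand of natural killer cell receptors, had a log2 difference of 0.18 (SE 0.064, limma adjusted p = 0.189). Among 12 genes of class I peptide loading 0 were called (3 unadjusted), and the chaperone CALR was the nearest, with 4859 and 4691 on the ING3 arrays and 3814 and 4064 on the control arrays (log2 difference 0.28, limma adjusted p = 0.0706). Among 15 tested neighbours of the class II region, such as BRD2, RING1, TAP1 and PSMB9, 0 were called and 0 had an unadjusted limma p under 0.05, with a median log2 difference of 0.0040. Of these neighbours, TAP1, TAP2, TAPBP, PSMB8 and PSMB9 are also among the 12 genes of class I peptide loading, so the counts overlap.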
